A study of Homo sapiens with 12 samples.

Results

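Respiratory complex I takes electrons from NADH into the mitochondrial respiratory chain. The genes described here are 43 nuclear genes that encode its subunits and assembly factors, taken by gene name among the 45478 genes of the count table. They comprise 6 core subunits of the matrix arm, 9 accessory subunits of the matrix arm, 20 accessory subunits of the membrane arm, the acyl carrier protein NDUFAB1, which sits in both arms, and the 7 assembly factors NDUFAF1 to NDUFAF7. The choice used names, not measured values.

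Transcripts were measured by mRNA sequencing in 4 groups of 3 libraries each. The groups were 786-O and A498, human clear cell renal cell carcinoma lines bought from ATCC, and the sunitinib-resistant lines derived from them, called resistant 786-O and resistant A498 below. The names 786-O and A498 alone mean the parental lines. Sunitinib is an inhibitor of receptor tyrosine kinases. Resistance was selected in rising drug concentrations, and stable growth was reached at 4 µM for resistant 786-O and 2 µM for resistant A498 after 4 months or more than 20 passages. All cells grew in DMEM with 25 mM glucose, glutamine and 10% serum, and all libraries are labelled as without treatment. The drug was in the medium throughout selection, and how long cells were kept without it before harvest is not given in the sources used here. Each resistant line is 1 selected culture, and no source used here says whether the 3 libraries of a group came from separate cultures, so p-values measure the spread between libraries, which may be technical.

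Complex I is the largest enzyme of the respiratory chain. Its matrix arm oxidises NADH and passes electrons along iron-sulfur clusters to ubiquinone, and its membrane arm pumps protons. The core subunits carry out the reaction, the accessory subunits stabilise the enzyme and are needed for its assembly, and the assembly factors help to build it without being part of the finished complex. Clear cell renal carcinomas commonly lose VHL, and a fall in mitochondrial respiration is a known feature of these tumours.

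Total counts ranged from 20042519 to 47972092 per library, with 40845091 to 47972092 in 786-O, 42643735 to 46888482 in resistant 786-O, 21686648 to 34951585 in A498 and 20042519 to 25831163 in resistant A498. Levels are given as CPM, read counts put on a common library size after TMM scaling. Of 7 kidney and clear cell markers, PAX8, a kidney transcription factor, was between 195 and 315 CPM in every library, while CA9, a clear cell carcinoma marker, was at 1.07 to 1.56 CPM in A498 and at most 0.053 CPM elsewhere. By the edgeR test 3 of the 7 were lower and 2 higher in each labelled resistance comparison. Of all genes 33.5% were lower and 35% higher in resistant 786-O, and 36.4% and 36.3% in resistant A498 against A498. The summed T cell markers reached at most 0.59 CPM, with CD2 at 0 throughout, the endothelial markers at most 0.81 CPM, and the fibroblast markers at most 17.8 CPM, nearly all of it LUM, in resistant A498. The gene profiles went against the label of resistant A498: its libraries had a median correlation across genes of 0.870 with A498, but 0.951 with 786-O and 0.982 with resistant 786-O. The correlation of 786-O with A498 was 0.868, and genes are not independent replicates. Resistant A498 was therefore set against A498, as labelled, and also against 786-O, and in each sentence below resistant A498 means the library group with that label. Replicate 2 of resistant 786-O stood apart from replicates 1 and 3, with correlations from 0.989 where that pair reached 0.996. Each group has a batch label of its own, so batch and group cannot be told apart in any comparison.

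Of the 43 genes, 42 had enough counts to be tested, and NDUFV2, which encodes an iron-sulfur core subunit, did not, with 2 to 11 counts per library. In GENCODE version 44 on GRCh38, 35 of the 43 share no coding base with another gene of the same strand, and 8 share most of their coding bases, from 68.3% in NDUFB5 to 100% in NDUFA7 and NDUFV2. The other 5 are NDUFA9, NDUFA11, NDUFA13, NDUFB8 and NDUFC2. Below, genes with shared exons means these 8, whose coding exons are shared. Some of the 35 share exon bases outside their coding sequence, such as NDUFS3 with PTPMT1 and NDUFAF6 with PLEKHF2. For NDUFA7, NDUFA9, NDUFA13 and NDUFC2 the gene that shares their exons has a row of its own in the table. Reads over exons of more than 1 gene are left out by default in featureCounts, so the counts of these 8 may not measure their whole transcript and their changes are uncertain. The gene that overlaps NDUFA11, NDUFB5, NDUFB8 or NDUFV2 has no row in the table, and the counting used an earlier annotation, so a loss of their reads was not shown. On the opposite strand 20 of the 43 share exonic bases with a gene, among them NDUFS7. The counting was set to use strand, but in a mode that is not the usual one for this kit, so for these genes it was not settled that reads of both strands were kept apart.

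The 8 genes with shared exons had a low median level, but not all of them lay below the others. Per kb of canonical transcript, the median level of the 35 other genes was 69.7 CPM per kb in 786-O, 53.1 in resistant 786-O, 55.8 in A498 and 57.7 in resistant A498, against 3.10, 2.54, 2.77 and 3.19 CPM per kb for the 8. In 786-O NDUFA11 at 15.8 and NDUFB5 at 13.4 CPM per kb were above NDUFA5, which has no shared exons, at 8.51. The highest level per kb in all 4 groups was that of NDUFS5, a small accessory subunit on the intermembrane space side, at 310 CPM per kb in 786-O and 275 CPM per kb in resistant A498. NDUFB9 and NDUFB2, accessory subunits of the membrane arm, followed it in each group except A498, where NDUFB2 was ahead of NDUFB9. In 786-O the order was NDUFS5, NDUFB9, NDUFB2, NDUFB7 and NDUFS6. Among the genes without shared coding exons the lowest level per kb in 786-O was that of NDUFAF5, a methyltransferase-like enzyme that hydroxylates a core subunit.

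**Figure D1:**
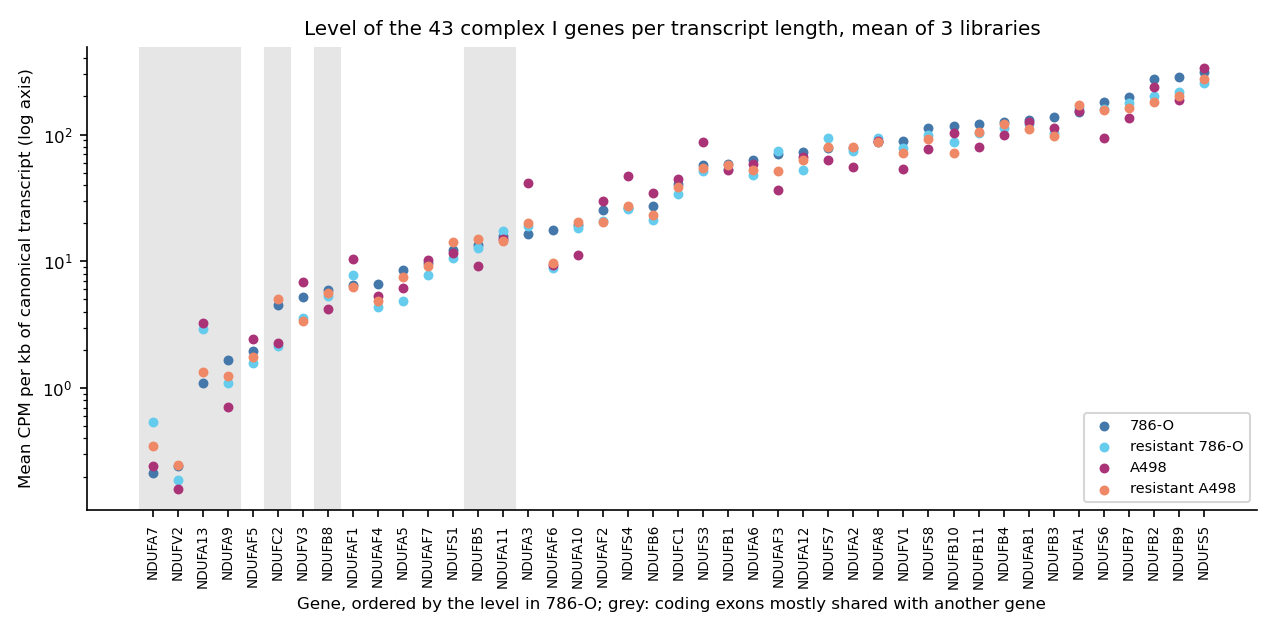
Mean level of the 43 genes per transcript length, as CPM per kb of canonical transcript on a log axis, with 1 point for each group. Grey bands mark the 8 genes whose coding exons are mostly shared with another gene; NDUFS5 is highest, and the 4 lowest genes in 786-O, NDUFA7, NDUFV2, NDUFA13 and NDUFA9, all lie in grey bands.

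NRF1, nuclear respiratory factor 1, is a transcription factor with known sites in promoters of respiratory chain genes, and YY1 is another factor with such sites. RefSeq promoters, 250 bases before to 50 bases after the start of transcription on GRCh38.p14, were matched for 38 of the 43 genes. The 10-base NRF1 motif, which reads the same on both strands, was found in 3 of these 38 promoters and in 1.36% of all 27305 promoters of that length. With 1 base of it left free, it was found on either strand in 7 of the 38 and in 6.28% of all, a count that includes the 3. The YY1 letters AAGATGGCG were found on either strand in 5 of the 38 and in 1.85% of all. The 3 promoters with the full NRF1 motif, in capitals, are shown because NRF1 itself was lower in the resistant lines; they lie at chr9:122159730-122160029, chr20:13784778-13785077 and chr3:120596086-120596385, on the minus strand for NDUFA8 and the plus strand for the other pair.
NDUFA8: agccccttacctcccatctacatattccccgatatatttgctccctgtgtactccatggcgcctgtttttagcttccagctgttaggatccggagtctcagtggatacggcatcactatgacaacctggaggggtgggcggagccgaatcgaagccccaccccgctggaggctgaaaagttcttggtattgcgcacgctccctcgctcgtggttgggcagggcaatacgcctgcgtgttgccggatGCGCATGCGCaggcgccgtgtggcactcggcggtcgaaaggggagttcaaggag
NDUFAF5: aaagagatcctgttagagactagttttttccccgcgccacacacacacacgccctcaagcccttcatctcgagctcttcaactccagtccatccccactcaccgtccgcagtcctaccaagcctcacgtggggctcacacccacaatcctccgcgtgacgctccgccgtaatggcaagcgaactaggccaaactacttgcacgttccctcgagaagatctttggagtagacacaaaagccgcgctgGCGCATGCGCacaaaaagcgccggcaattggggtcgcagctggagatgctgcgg
NDUFB4: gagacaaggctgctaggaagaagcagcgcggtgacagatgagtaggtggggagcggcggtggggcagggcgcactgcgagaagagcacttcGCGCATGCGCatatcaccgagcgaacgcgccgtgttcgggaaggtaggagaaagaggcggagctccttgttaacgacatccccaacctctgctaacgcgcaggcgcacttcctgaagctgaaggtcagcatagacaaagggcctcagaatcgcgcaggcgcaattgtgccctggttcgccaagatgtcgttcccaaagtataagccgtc
A match is a run of letters and does not show that a factor binds there.

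In resistant 786-O most of the changes were small and downward. Of the 42 genes tested, 26 were lower in resistant 786-O than in 786-O, 5 were higher and 11 were not called at an adjusted p of 0.05. Of all 19929 genes tested, 33.5% were lower and 35% higher, and of the 10085 genes whose mean reached 10 CPM, the range that held 36 of the 43 complex I genes in 786-O, 47.7% were lower and 29% higher. The median log2 fold change was -0.18 over the complex I genes, 0.03 over all genes and -0.13 over the genes of at least 10 CPM. Only 6 of the 26 fell by more than 0.5 on the log2 scale, where 18.3% of all genes were lower by that much. The libraries of the 2 lines did not overlap for 32 of the 42, against 68.9% of all genes. Leaving aside the genes with shared exons, 24 of 35 were lower and 3 higher. With scaling by library size alone, the median of all genes rose by 0.14 and the counts became 15 lower and 9 higher. Of all genes 25.8% were lower and 42.9% higher under that scaling. The complex I median became -0.034, and that median minus the median of all genes was -0.21 under both scalings. A change of scaling shifts all genes about alike, so this difference could hardly move and is no check on the counts.

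The summed level of the 43 genes was 2382 ± 39.2 CPM in 786-O, 2048 ± 72.9 in resistant 786-O, 2008 ± 34.3 in A498 and 2071 ± 14.9 in resistant A498 (mean ± SD, n = 3 libraries each). The 786-O libraries, at 2351 to 2426 CPM, lay above all others, and the other 9 libraries lay between 1976 and 2121 CPM. The scale is relative, so these sums say nothing of the RNA content of a cell.

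**Figure D2:**
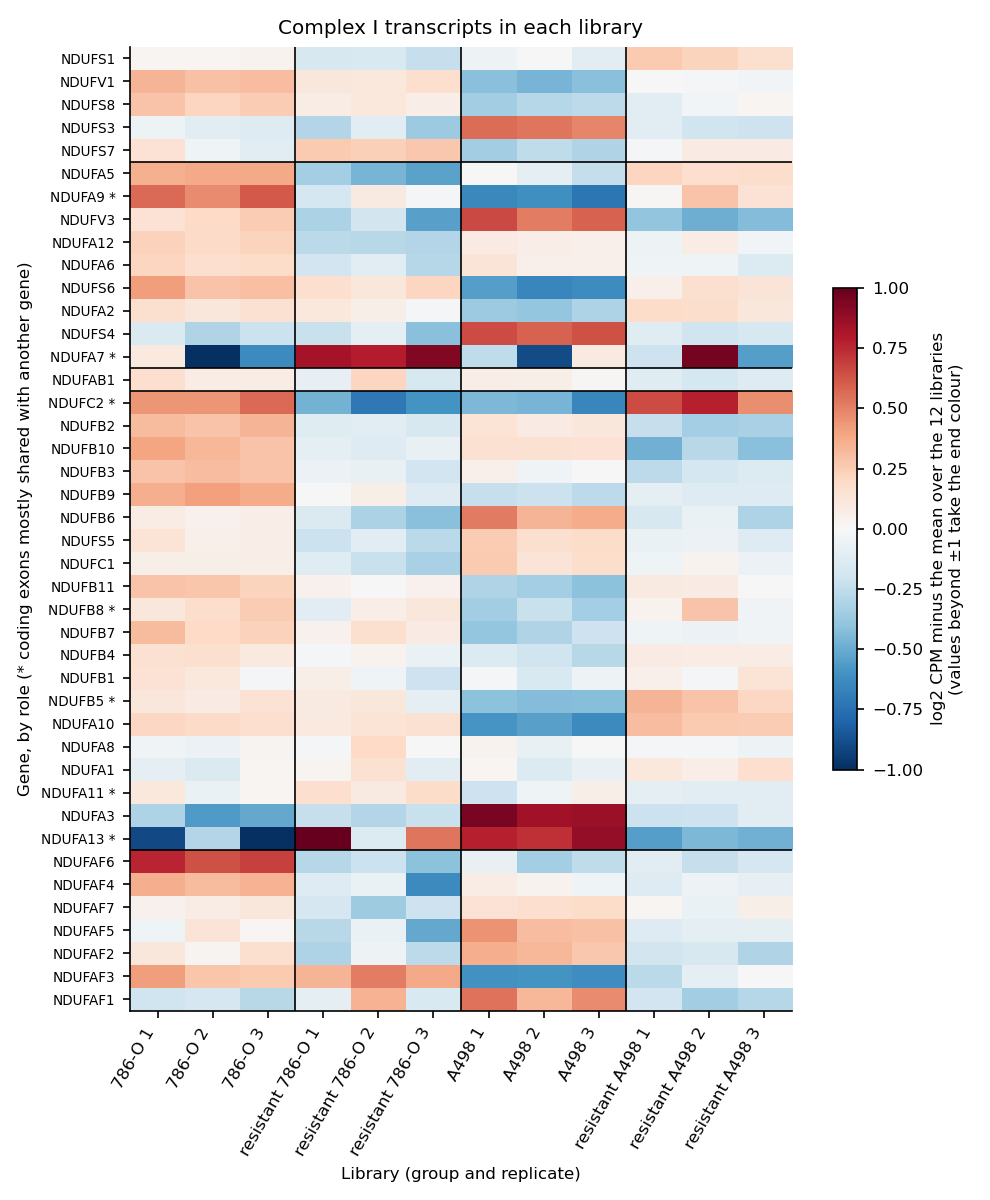
Level of the 42 tested genes in each of the 12 libraries, as log2 CPM minus the mean over all libraries, in rows ordered by role and by change in resistant 786-O. The 786-O columns are mostly red in the accessory blocks, NDUFA5, NDUFC2 and NDUFAF6 turn from red in 786-O to blue in resistant 786-O, and NDUFA3, NDUFS4 and NDUFV3 are highest in A498.

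The core subunits of the matrix arm changed by little in resistant 786-O, with 4 of the 5 tested lower and 1 higher. Of all genes 33.5% were lower and 35% higher, and of those of at least 10 CPM 47.7% and 29%. NDUFV1, the flavoprotein that binds NADH, was at 141, 137 and 139 CPM in 786-O, 121, 120 and 126 in resistant 786-O, 83.9, 81.1 and 83.8 in A498 and 112, 110 and 110 in resistant A498. None of these 4 groups overlapped with another. The log2 fold change was -0.18 ± 0.04 (SE) in resistant 786-O against 786-O (adjusted p = 0.00079, edgeR), 0.42 ± 0.04 in resistant A498 against A498 and -0.33 ± 0.04 in resistant A498 against 786-O. With library size scaling the calls in resistant 786-O were lost for all 4 core subunits that were lower, with values of -0.040 for NDUFV1, -0.063 for NDUFS1, -0.028 for NDUFS8 and -0.012 for NDUFS3.

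NDUFS1, the largest core subunit and a carrier of iron-sulfur clusters, was at 144, 143 and 145 CPM in 786-O and at 127, 127 and 121 CPM in resistant 786-O. In A498 it was at 136, 141 and 131 CPM, and in resistant A498 at 169, 165 and 158 CPM, above every library of the other groups. It fell by 0.21 ± 0.04 on the log2 scale in resistant 786-O (adjusted p = 0.00076) and was 0.27 ± 0.04 higher in resistant A498 than in A498. The second difference was -0.0039 once a trend with gene length and GC content was removed.

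NDUFS3, NDUFS7 and NDUFS8 lie around the site where electrons leave for ubiquinone. NDUFS8 was at 84.6, 80.6 and 82.7 CPM in 786-O, 73.1, 74.4 and 72.7 in resistant 786-O, 54.5, 57.0 and 57.8 in A498 and 64.3, 68.1 and 70.2 in resistant A498. These groups did not overlap, and NDUFS8 fell by 0.17 ± 0.05 in resistant 786-O and was 0.26 ± 0.05 higher in resistant A498 than in A498 (log2 scale). NDUFS3 was at 52.9, 50.4 and 50.0 CPM in 786-O, 44.6, 50.6 and 42.5 in resistant 786-O, 80.6, 79.0 and 76.6 in A498 and 50.6, 47.7 and 47.3 in resistant A498.

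For NDUFS3 only the A498 libraries stood clear of the rest. Its difference of -0.16 ± 0.06 in resistant 786-O (adjusted p = 0.034) lost its call when replicate 1 or 2 of 786-O or replicate 1 or 3 of resistant 786-O was left out, at -0.08 without replicate 3 of resistant 786-O, and also with either other filter on low counts, with the groups fitted alone and in DESeq2. Resistant A498 against A498 was at -0.70 ± 0.06. NDUFS7 was at 65.4, 57.3 and 54.9 CPM in 786-O, 71.0, 69.7 and 71.3 in resistant 786-O, 46.3, 49.4 and 47.9 in A498 and 58.1, 62.4 and 62.5 in resistant A498. It was the only core subunit higher in resistant 786-O, by 0.26 ± 0.06 (log2, adjusted p = 0.0016), and with the trend of gene length and GC content removed the sign turned to -0.22. Its canonical transcript has a GC content of 66.9%.

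NDUFV2 was not tested. Its counts were 8, 11 and 6 in 786-O, 8, 10 and 4 in resistant 786-O, 6, 2 and 4 in A498 and 3, 6 and 6 in resistant A498. In GENCODE 44 all its coding bases lie in another gene of the same strand, which has no row in the table, and whether that bears on these low counts was not tested.

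The matrix arm accessory subunits fell further, with 6 of 9 lower and 1 higher in resistant 786-O and a median log2 fold change of -0.38. The shares lower and higher were 33.5% and 35% of all genes, and 47.7% and 29% of those of at least 10 CPM. NDUFA5, which sits beside the ubiquinone site and lies at chr7:123536997-123557904 on the minus strand, was at 46.3, 47.0 and 47.0 CPM in 786-O and at 28.5, 26.2 and 24.9 CPM in resistant 786-O. In A498 it was at 36.1, 34.0 and 30.7 CPM and in resistant A498 at 41.9, 40.6 and 40.9 CPM. All 3 libraries of resistant 786-O were below every other library, a log2 fold change of -0.82 ± 0.06 against 786-O (adjusted p = 2.6e-08).

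NDUFV3, a small subunit of the NADH-oxidising tip, was at 28.9, 29.95 and 31.2 CPM in 786-O, 21.0, 22.9 and 17.9 in resistant 786-O, 41.2, 37.3 and 39.2 in A498 and 19.8, 18.6 and 19.3 in resistant A498. Both resistant groups lay below both parental lines and overlapped with each other. The log2 fold changes were -0.54 ± 0.08 in resistant 786-O against 786-O, -1.03 ± 0.08 in resistant A498 against A498 and -0.64 ± 0.08 in resistant A498 against 786-O. NDUFA12 and NDUFA6, accessory subunits of the same arm, were at -0.49 ± 0.05 and -0.38 ± 0.05 in resistant 786-O. NDUFS4, needed for a stable NADH-oxidising module, did not pass the test in resistant 786-O at -0.03 ± 0.08, nor did NDUFA2 at -0.09 ± 0.05.

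NDUFA9 and NDUFA7 share exons with other genes. NDUFA9, a subunit near the junction of the arms, was at 13.97, 13.04 and 14.38 CPM in 786-O, 8.33, 10.0 and 9.29 in resistant 786-O, 6.02, 6.14 and 5.70 in A498 and 9.47, 11.4 and 10.4 in resistant A498. It fell by 0.58 ± 0.09 in resistant 786-O and was 0.81 ± 0.10 higher in resistant A498 than in A498 (log2). NDUFA7 had 7, 3 and 5 counts in 786-O, 15, 13 and 15 in resistant 786-O, 5, 2 and 5 in A498 and 4, 7 and 3 in resistant A498, and its log2 fold change of 1.31 ± 0.39 in resistant 786-O rests on these few counts.

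In resistant 786-O 33.5% of all genes were lower and 35% higher, and 47.7% and 29% of those of at least 10 CPM. Of the 20 membrane arm accessory subunits, 11 were lower and 2 higher there. Their median log2 fold change was -0.16, near the -0.13 of the genes of at least 10 CPM. The largest fall among these subunits was that of NDUFC2, at chr11:78068297-78079862 on the minus strand, which shares 86.8% of its coding bases with the readthrough gene NDUFC2-KCTD14. It was at 9.57, 9.57 and 10.4 CPM in 786-O, 5.07, 4.28 and 4.66 in resistant 786-O, 5.15, 5.11 and 4.49 in A498 and 11.1, 12.1 and 9.70 in resistant A498. The levels fell into a lower pair of groups, resistant 786-O and A498, and a higher pair, 786-O and resistant A498, which did not overlap. The log2 fold changes were -1.08 ± 0.10 in resistant 786-O against 786-O and 1.15 ± 0.11 in resistant A498 against A498.

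NDUFB10, on the intermembrane space side, was at 82.5, 78.9 and 76.5 CPM in 786-O, 58.8, 57.4 and 59.7 in resistant 786-O, 69.8, 69.8 and 69.4 in A498 and 45.0, 51.9 and 46.9 in resistant A498. NDUFB2 was at 127, 125 and 129 CPM in 786-O, 94.0, 94.8 and 91.7 in resistant 786-O, 113, 108 and 111 in A498 and 87.3, 81.0 and 81.9 in resistant A498. For both genes the resistant groups lay below both parental lines without overlap. NDUFB10 changed by -0.44 ± 0.05 in resistant 786-O and -0.54 ± 0.05 in resistant A498 against A498, and NDUFB2 by -0.44 ± 0.04 and -0.41 ± 0.04 (log2).

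NDUFB3 and NDUFB9 both changed by -0.40 ± 0.05 in resistant 786-O, and NDUFB6 by -0.35 ± 0.08. NDUFB4, whose promoter holds the full NRF1 motif shown above, changed by -0.15 ± 0.05, and NDUFA8, with the same motif, did not pass the test at 0.09 ± 0.06. NDUFA10, at the matrix face of the membrane arm, did not pass the test in resistant 786-O at -0.06 ± 0.04, nor did NDUFB1, NDUFB5, NDUFB8, NDUFA1 or NDUFA11.

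The 2 membrane arm subunits called higher in resistant 786-O were NDUFA3 and NDUFA13. NDUFA3 was at 17.3, 14.5 and 15.0 CPM in 786-O and at 18.2, 17.5 and 18.3 CPM in resistant 786-O, groups that came close without overlapping, at a log2 fold change of 0.21 ± 0.07. NDUFA13, also known as GRIM-19, shares 98.4% of its coding bases with another gene. It was at 0.53, 0.80 and 0.40 CPM in 786-O, 2.25, 0.89 and 1.42 in resistant 786-O, 1.68, 1.63 and 1.80 in A498 and 0.67, 0.72 and 0.70 in resistant A498, and its log2 fold change in resistant 786-O was 1.42 ± 0.31. NDUFAB1, which also carries acyl chains in mitochondrial fatty acid synthesis, did not pass the test in resistant 786-O at -0.11 ± 0.07.

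**Figure D3:**
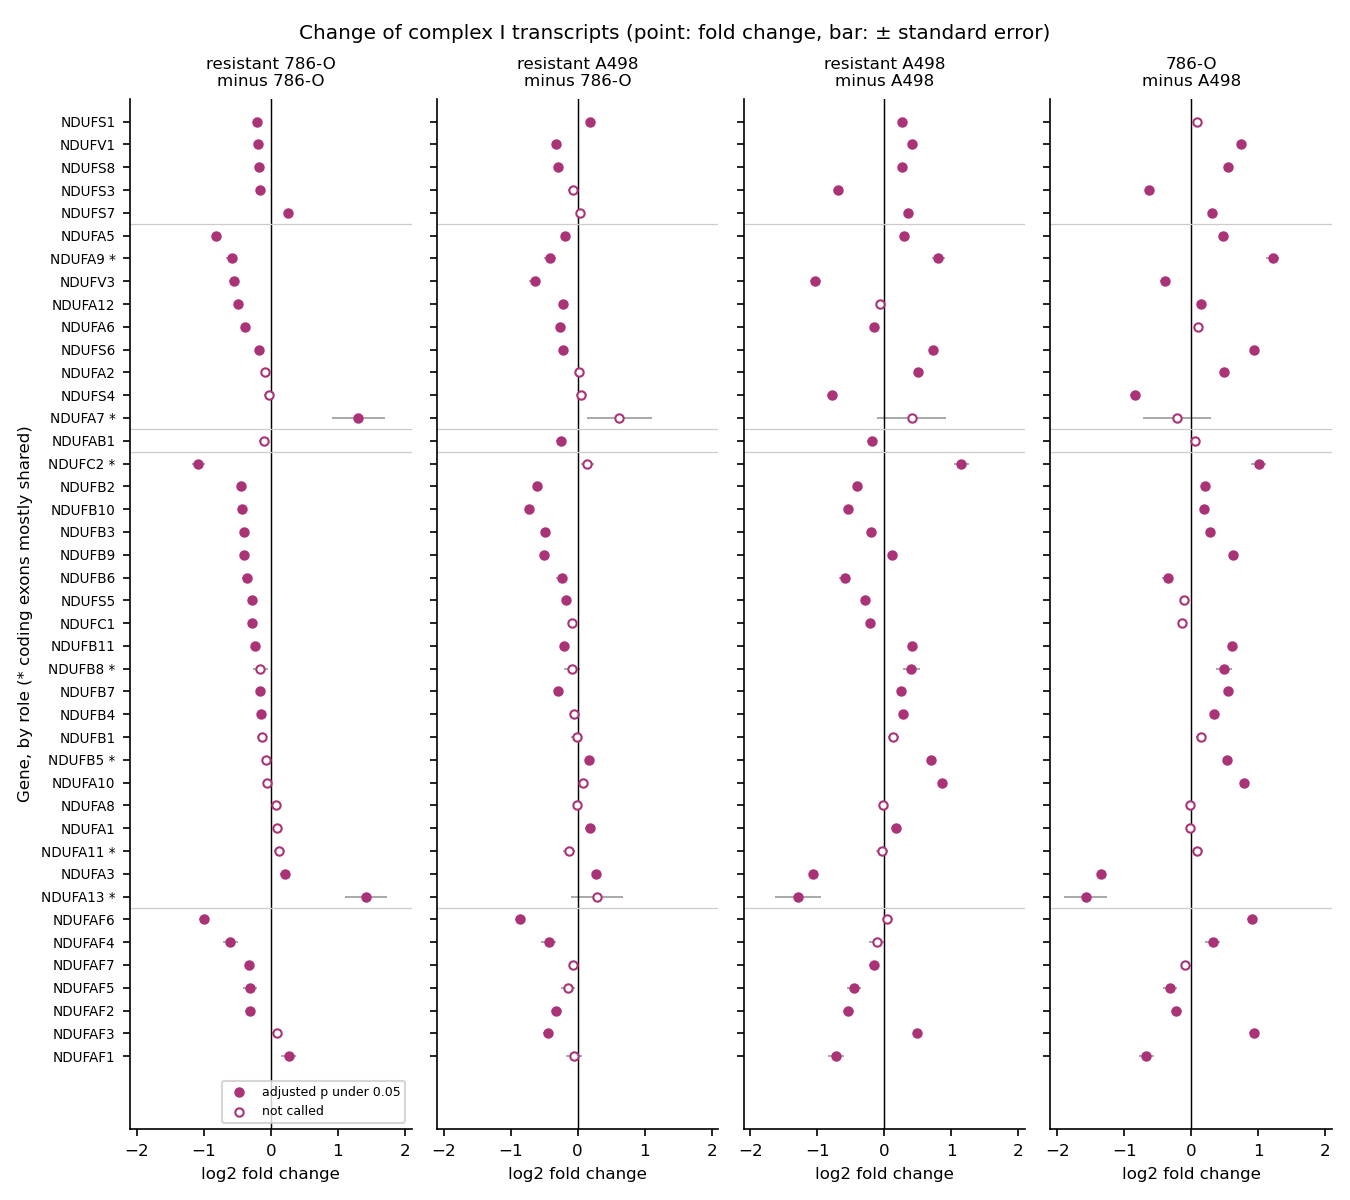
Log2 fold change of the 42 tested genes in 4 comparisons, with 1 row for each gene by role. Points are at the fold change and bars show the standard error derived from the edgeR fit of all 12 libraries. Filled points passed an adjusted p of 0.05. In resistant 786-O 26 filled points lie left of 0 and 5 right of it, and in resistant A498 against A498 the 18 higher and 17 lower points lie on both sides.

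The assembly factors had 5 of 7 lower and 1 higher in resistant 786-O. The shares were 33.5% and 35% of all genes, and 47.7% and 29% of those of at least 10 CPM. NDUFAF6, which acts early in assembly, was at 33.01, 30.16 and 31.22 CPM in 786-O, 15.9, 16.7 and 14.7 in resistant 786-O, 18.5, 15.4 and 16.3 in A498 and 17.97, 16.60 and 17.29 in resistant A498. 786-O stood well above the other 3 groups, which overlapped, and the log2 fold changes were -0.997 ± 0.074 in resistant 786-O (adjusted p = 1.8e-08) and -0.86 ± 0.08 in resistant A498 against 786-O. Against A498, resistant A498 was at 0.04 ± 0.08 and not called.

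NDUFAF3 and NDUFAF4 act together in building the ubiquinone module. NDUFAF4 was at 16.1, 15.5 and 15.9 CPM in 786-O, 11.4, 11.9 and 8.05 in resistant 786-O, 13.2, 12.8 and 12.1 in A498 and 11.4, 12.1 and 11.8 in resistant A498, and fell by 0.60 ± 0.11 in resistant 786-O (log2). NDUFAF3 was at 67.2, 61.0 and 60.4 CPM in 786-O, 63.7, 71.7 and 65.6 in resistant 786-O, 33.04, 33.14 and 32.63 in A498 and 41.7, 46.9 and 50.5 in resistant A498. The 2 partners differed in resistant 786-O, where NDUFAF3 overlapped with 786-O and was not called at 0.09 ± 0.07, a value that became 0.24 and passed the test under library size scaling.

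NDUFAF2, a relative of NDUFA12 that acts late in assembly, was at 16.2, 15.3 and 16.8 CPM in 786-O, 12.1, 14.5 and 12.5 in resistant 786-O, 19.2, 18.9 and 18.1 in A498 and 13.2, 13.4 and 12.2 in resistant A498. NDUFAF5 was at 10.1, 11.3 and 10.5 CPM in 786-O, 8.56, 9.89 and 7.24 in resistant 786-O, 14.1, 12.8 and 12.6 in A498 and 9.47, 9.71 and 9.74 in resistant A498. NDUFAF7, an arginine methyltransferase, was at 20.6, 21.1 and 21.6 CPM in 786-O, 17.8, 15.6 and 17.3 in resistant 786-O, 22.2, 22.4 and 22.8 in A498 and 20.3, 19.1 and 20.8 in resistant A498. The 3 genes changed alike in size in resistant 786-O, at -0.31 ± 0.08, -0.31 ± 0.10 and -0.32 ± 0.06, and were at -0.54 ± 0.08, -0.46 ± 0.11 and -0.16 ± 0.07 in resistant A498 against A498. The NDUFAF5 call in resistant 786-O was lost without replicate 2 of 786-O or replicate 3 of resistant 786-O, at -0.27 and -0.18, and also with library size scaling and with the length and GC trend removed, at -0.17 in both, and with the groups fitted alone, at -0.28. The NDUFAF2 call was lost with library size scaling at -0.16. The NDUFAF7 call in resistant A498 was lost without any 1 of the 6 libraries, with library size scaling at -0.091 and with no filter at -0.12.

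NDUFAF1, part of the complex that builds the membrane arm, was at 9.94, 10.2 and 9.43 CPM in 786-O, 10.7, 14.6 and 10.3 in resistant 786-O, 16.6, 14.4 and 15.9 in A498 and 9.990, 8.996 and 9.390 in resistant A498. Its difference of 0.27 ± 0.11 in resistant 786-O (adjusted p = 0.048) rested on replicate 2 of resistant 786-O, without which it was 0.09 and not called. The call was also lost without any 1 of the 786-O libraries, at 0.23 to 0.29, with the groups fitted alone and in limma-voom. Against A498, resistant A498 was at -0.73 ± 0.12 (log2).

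Resistant A498 differed from A498 in both directions about equally. Of the 42 genes, 18 were higher, 17 lower and 7 not called, where 36.3% of all genes were higher and 36.4% lower, and 43.2% and 38% of the genes of at least 10 CPM. The median log2 fold change was 0.01. The libraries did not overlap for 37 of the 42, against 78.5% of all genes. By role, 4 of 5 core subunits were higher and 1 lower, 4 of 9 matrix arm accessory subunits were higher and 3 lower, 9 of 20 membrane arm accessory subunits were higher and 8 lower, and 1 of 7 assembly factors was higher and 4 lower. More than 0.5 from 0 on the log2 scale were 6 higher and 9 lower, beside 25.9% and 26.6% of all genes. Of the 18 genes higher than in A498, 16 were also higher in 786-O than in A498 and 0 lower. Of the 17 lower, 9 were also lower in 786-O and 3 higher. Both comparisons use the same A498 libraries, and the share of such overlap among all genes was not taken. A change with resistance and the difference between the parental lines cannot be told apart here.

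NDUFA10, at chr2:239892450-240025743 on the minus strand, had the largest rise in resistant A498 among genes without shared coding exons. It was at 54.1, 56.1 and 52.4 CPM in A498 and 100.9, 97.5 and 97.0 CPM in resistant A498, a log2 fold change of 0.86 ± 0.04 (adjusted p = 1.3e-10). In 786-O it was at 94.4, 93.0 and 91.8 CPM and in resistant 786-O at 87.1, 89.6 and 90.5 CPM. A498 was thus the group that stood apart, and resistant A498 against 786-O was at 0.08 ± 0.04 and not called.

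NDUFS6, which holds a zinc site in the NADH-oxidising module, was at 50.7, 47.1 and 47.9 CPM in A498 and 76.8, 82.9 and 81.0 CPM in resistant A498. It was at 98.7, 90.1 and 91.0 CPM in 786-O and 83.1, 80.2 and 85.7 CPM in resistant 786-O. The rise over A498 was 0.72 ± 0.05 (log2), and resistant A498 was -0.22 ± 0.05 from 786-O.

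NDUFA3, at chr19:54102728-54109257 on the plus strand, had the largest fall in resistant A498 among genes without shared coding exons. It was at 41.3, 38.2 and 38.8 CPM in A498 and 18.5, 18.5 and 19.8 CPM in resistant A498, close to the 14.5 to 18.3 CPM of 786-O and resistant 786-O. The log2 fold change was -1.06 ± 0.07 against A498 and 0.28 ± 0.07 against 786-O. NDUFS4 was at 32.1, 30.9 and 31.8 CPM in A498 and 18.8, 17.9 and 18.3 in resistant A498, and at 18.6, 16.6 and 17.7 in 786-O and 17.6, 19.1 and 15.3 in resistant 786-O. Only A498 stood apart for NDUFS4, at -0.78 ± 0.08 for resistant A498 against A498 and 0.06 ± 0.08 against 786-O. NDUFA13 had the most negative value in resistant A498 against A498, at -1.29 ± 0.34, on 15 to 58 counts per library.

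The parental lines differed from each other in 31 of the 42 genes. In 786-O against A498, 22 were higher and 9 lower, where 38.2% of all genes were higher and 36.1% lower, and 49.7% and 32.2% of the genes of at least 10 CPM. The median log2 fold change was 0.17 beside 0.15 for the genes of at least 10 CPM. With the length and GC trend removed the median was 0.035 and 14 were lower, beside 35.5% of all genes. Among the genes without shared coding exons, NDUFS6 at 0.94 ± 0.05, NDUFAF3 at 0.93 ± 0.07 and NDUFAF6 at 0.91 ± 0.08 were higher in 786-O. NDUFA3 at -1.34 ± 0.07 and NDUFS4 at -0.84 ± 0.08 were lower.

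Against 786-O, resistant A498 had 21 of 42 genes lower and 4 higher, where 32.1% of all genes were lower and 31.6% higher. Of the genes of at least 10 CPM, 44.4% were lower and 30.6% higher. This comparison uses the same 786-O libraries as that of resistant 786-O. The median was -0.16 for the complex I genes and -0.09 for the genes of at least 10 CPM. With library size scaling the counts were 12 lower and 10 higher as the median of all genes rose by 0.15, and 23.8% of all genes were lower and 39.8% higher. The largest falls were NDUFAF6 at -0.86, NDUFB10 at -0.73 ± 0.05, NDUFV3 at -0.64 and NDUFB2 at -0.61 ± 0.04. The 4 called higher were NDUFA3 at 0.28, NDUFS1 at 0.19 ± 0.04, NDUFA1 at 0.19 ± 0.07 and NDUFB5 at 0.16 ± 0.06. NDUFA1 was at 62.4, 60.6 and 67.8 CPM in 786-O, 68.1, 74.2 and 61.6 in resistant 786-O, 67.9, 60.9 and 63.4 in A498 and 72.0, 70.0 and 75.1 in resistant A498, and NDUFB5 was at 56.0, 54.9 and 57.3, then 55.1, 56.1 and 48.7, then 39.1, 38.4 and 38.6, and then 65.5, 63.1 and 59.9 CPM in the same order of groups. Both were small rises, and both calls were lost without replicate 1 or replicate 2 of 786-O, and without resistant A498 replicate 3 for NDUFA1 or replicate 1 for NDUFB5, while the NDUFS1 value turned to -0.05 with the length and GC trend removed.

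The 2 resistant groups were closer to each other. Resistant A498 against resistant 786-O had 8 genes higher, 10 lower and 24 not called, where 23% of all genes were higher and 23% lower, and 33.2% and 26.3% of the genes of at least 10 CPM. Without replicate 2 of resistant 786-O, 18 were higher, beside 26.7% of all genes. Without any 1 library of resistant A498 5 were lower, beside 17.4% to 17.9% of all genes. With the length and GC trend removed 16 were higher and 3 lower, beside 20.3% and 19.6% of all genes. NDUFC2 at 1.22 ± 0.10 and NDUFA5 at 0.63 ± 0.06 were higher in resistant A498, and NDUFAF3 at -0.53 ± 0.07 and NDUFA13 at -1.13 ± 0.33 were lower.

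Set side by side, the labelled resistance comparisons share no library. They come from 1 model, however, and the 2 resistant groups were close, at a median correlation of 0.982. Shared calls therefore cannot be taken as a separate repetition. Of the 26 genes lower in resistant 786-O, 12 were also lower in resistant A498 against A498, 11 were higher and 3 were not called, and of the 17 lower in resistant A498, 12 were lower in resistant 786-O. Among all genes lower in resistant 786-O, 42.7% were lower, 33.2% higher and 24% not called in resistant A498 against A498, and among all genes lower in resistant A498, 39.3% were lower in resistant 786-O. In the genes of at least 10 CPM these shares were 43.5%, 36.1%, 20.4% and 54.6%, in that order. The 12 were NDUFS3 of the core, NDUFA6 and NDUFV3 of the matrix arm, NDUFB2, NDUFB3, NDUFB6, NDUFB10, NDUFC1 and NDUFS5 of the membrane arm, and NDUFAF2, NDUFAF5 and NDUFAF7. NDUFS7 alone was higher in both, and its resistant 786-O value turned sign with the length and GC trend removed. The 11 with opposite calls included NDUFV1, NDUFS1 and NDUFS8 of the core and NDUFA5, NDUFA9 and NDUFC2, and a further 3, NDUFA3, NDUFA13 and NDUFAF1, were higher in resistant 786-O and lower in resistant A498. Tested directly as a difference between the changes, 22 genes differed upward in resistant A498 and 6 downward, where 33.9% and 34.4% of all genes did, and 46.7% and 30.6% of the genes of at least 10 CPM.

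**Figure D4:**
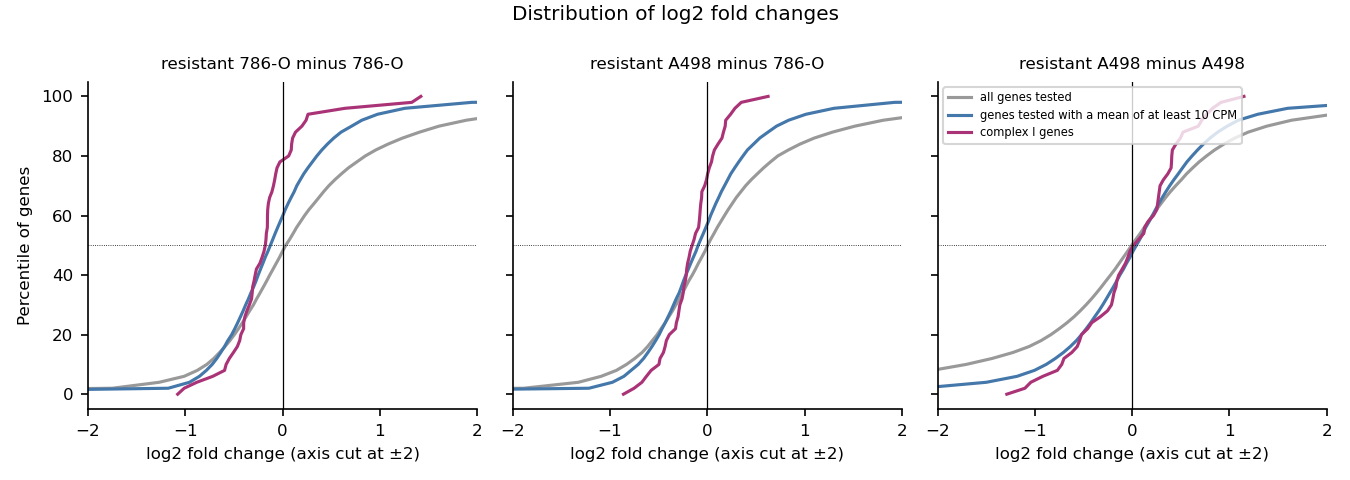
Percentile curves of the log2 fold change for the 42 complex I genes, all 19929 genes tested and the 10085 genes whose mean reached 10 CPM, in 3 comparisons with the axis cut at 2 in either direction. In resistant 786-O the complex I curve crosses the 50th percentile at -0.18, left of the other curves at -0.13 and 0.03, and in resistant A498 against A498 all 3 cross near 0.

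Of 12 further assembly factors of complex I, 10 were lower and 0 higher in resistant 786-O by the edgeR test, with a median log2 fold change of -0.34. Of all genes 33.5% were lower and 35% higher there, and of those of at least 10 CPM 47.7% and 29%. NUBPL, which helps to insert iron-sulfur clusters, fell from a mean of 12.03 to 8.12 CPM (log2 fold change -0.57 ± 0.07), and FOXRED1 had the smallest called fall at -0.14 ± 0.05. In resistant A498 against A498, 6 of the 12 were higher and 4 lower, with TMEM126B at 0.70 ± 0.07 and DMAC1 at -0.70 ± 0.12 at the ends. Against 786-O, resistant A498 had 9 of the 12 lower. Of all genes 32.1% were lower in that comparison, and 36.3% were higher and 36.4% lower against A498.

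Of the 7 subunits encoded in mitochondrial DNA, 3 were higher and 1 lower in resistant 786-O, with a median log2 fold change of 0.24. Of all genes 35% were higher and 33.5% lower. MT-ND4L was at 0.69 ± 0.11, MT-ND5 at 0.49 ± 0.14, MT-ND4 at 0.37 ± 0.12 and MT-ND3 at -0.29 ± 0.11. MT-ND1 at 0.24 ± 0.12, MT-ND2 at 0.22 ± 0.12 and MT-ND6 at 0.04 ± 0.14 were not called. In resistant A498 against A498, 5 were lower and 0 higher, led by MT-ND6 at -0.78 ± 0.14, which was at 194, 207 and 236 CPM in resistant A498 and 289, 382 and 420 CPM in A498. Of all genes 36.4% were lower and 36.3% higher in that comparison. The libraries were made from polyadenylated RNA, and how much mitochondrial RNA each captured was not tested.

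The 39 nuclear subunits of complexes II to V in resistant 786-O comprised 26 lower and 4 higher, with a median log2 fold change of -0.30. Of all genes 33.5% were lower and 35% higher, and of those of at least 10 CPM 47.7% and 29%. SDHD, an anchor of complex II, was at -0.85 ± 0.08 and COX6C at 0.30 ± 0.07. In resistant A498 against A498, 21 were higher and 9 lower with a median of 0.19, from COX7C at -0.76 ± 0.05 to COX8A at 1.13 ± 0.05. Of the genes of at least 10 CPM 43.2% were higher and 38% lower. Against 786-O 11 were higher and 18 lower, where 30.6% and 44.4% of such genes were. The lists were not tested against each other, so no difference between complex I and the other complexes was shown. NDUFA4L2, a relative of a subunit of the respiratory chain that is known to be high in clear cell carcinoma, was low in all 4 groups at means of 0.47 to 0.57 CPM and was not called in either resistance comparison.

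A list of 12 genes was taken for the transcription and turnover of the respiratory chain, and it includes NDUFA4L2. Of these, 7 were lower and 3 higher in resistant 786-O, and 2 were lower and 4 higher in resistant A498 against A498. Of all genes 33.5% were lower and 35% higher in the first comparison, and 36.4% and 36.3% in the second. PPARGC1A, the coactivator PGC-1 alpha, was at 0.97, 0.96 and 1.38 CPM in 786-O, 7.39, 7.67 and 7.17 in resistant 786-O, 0.96, 0.65 and 0.59 in A498 and 14.4, 15.4 and 15.3 in resistant A498. Every resistant library was above every parental one, at log2 fold changes of 2.73 ± 0.14 in resistant 786-O, 4.31 ± 0.16 in resistant A498 against A498 and 3.75 ± 0.14 against 786-O. TFAM, the packaging and transcription factor of mitochondrial DNA, was at 82.7, 83.5 and 86.5 CPM in 786-O and 48.2, 41.9 and 39.0 in resistant 786-O, a log2 fold change of -0.97 ± 0.06, and at 0.49 ± 0.07 in resistant A498 against A498.

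PPRC1, a coactivator related to PGC-1 alpha, was at -0.24 ± 0.04 in resistant 786-O and -0.25 ± 0.04 in resistant A498 against A498. NRF1, chosen after its values were seen because of the promoters shown above, was at 22.5, 23.6 and 20.9 CPM in 786-O, 13.4, 12.6 and 14.9 in resistant 786-O, 15.4, 16.9 and 16.4 in A498 and 14.6, 14.1 and 13.4 in resistant A498. It was lower in both resistant groups, at -0.71 ± 0.08 in resistant 786-O, -0.21 ± 0.08 in resistant A498 against A498 and -0.67 ± 0.08 against 786-O. Of the 3 genes with its full motif, NDUFAF5 was lower in both labelled comparisons, NDUFB4 was lower in resistant 786-O and higher in resistant A498 against A498 at 0.28 ± 0.05, and NDUFA8 was called in neither. Whether any regulator bears on the complex I genes was not tested.

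**Figure D5:**
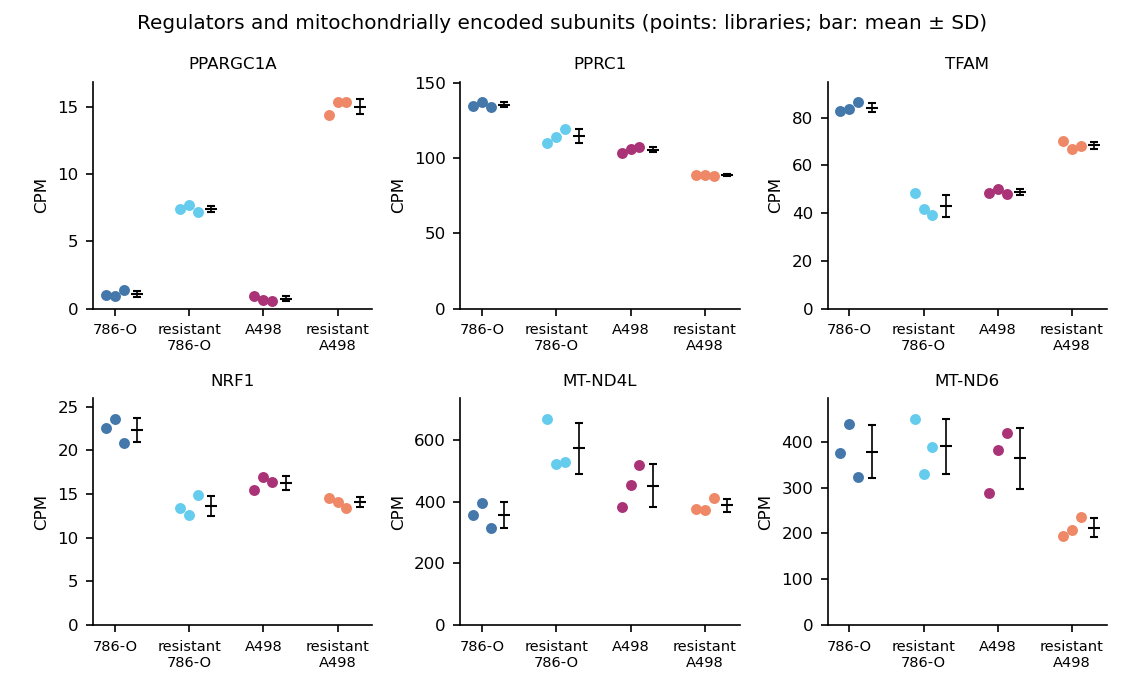
CPM of 4 regulators and 2 mitochondrially encoded subunits in each library, with points for the 3 libraries of each group and a bar for the mean and SD, on axes that start at 0. PPARGC1A is high in both resistant groups, at 7.17 to 7.67 CPM in resistant 786-O and 14.4 to 15.4 CPM in resistant A498, while NRF1 is highest in 786-O at 20.9 to 23.6 CPM.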

How the data were processed

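Poly-A RNA of 12 libraries was sequenced paired-end from TruSeq Stranded mRNA libraries on HiSeq and NovaSeq instruments. Per the study's methods and the submitters' processing notes, the authors trimmed reads with Trimmomatic 0.36.6, aligned them to GRCh38 with HISAT2 2.1.0 and counted exonic reads of mapping quality 12 or more with featureCounts 1.6.3, strand mode 1 and GENCODE 33. The authors deposited these raw counts per gene, with no normalization. Here the counts were filtered with filterByExpr and TMM-scaled, and 1 quasi-likelihood model with 4 group means was fitted in edgeR 4.0.16 (R 4.3.3, limma 3.58.1, prior count 0.125), with Benjamini-Hochberg adjustment over 19929 genes and a threshold of 0.05. Log2 fold changes are from that model, errors are SE or SD, and CPM uses the TMM-scaled library size. The SE of a fold change is its absolute log2 value over the square root of the F statistic of that model. The model was tested on simulated data. Alternatives included DESeq2 1.42.0, and the test named by the authors was run on CPM. Symbols were taken from a reference table, and gene models from GENCODE 44, a later release than the authors used. Genes named with every library's value were the core subunits, the assembly factors and, in resistant 786-O against 786-O and in resistant A498 against A498 and against 786-O, the 4 largest called changes in each direction. The remaining complex I genes are given by counts or single values. At most 4 genes per other list are named, those with the largest called change in each direction in the 2 resistance comparisons, besides NDUFA4L2, the MT-ND genes, markers and NRF1. The complex I genes and lists were chosen with earlier results of these data known.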

Additional observations from a re-analysis of the deposited data

Results flagged for a closer look

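The change of 28 of the 42 complex I genes tested differed between the labelled lines by the interaction term of the edgeR model, at an adjusted p under 0.05, where 33.9% of all genes differed upward and 34.4% downward, and 46.7% and 30.6% of the genes with a mean of 10 CPM or more. The other 14 were not called, beside 6322 of all 19929 genes and 2292 of the 10085 with a mean of 10 CPM or more. Most genes thus differed, and the count of 28 is not particular to complex I. Each value is the log2 fold change in resistant A498 against A498 minus that in resistant 786-O against 786-O. Because the resistant A498 libraries were closer to 786-O than to A498, the values also contain the difference between A498 and 786-O, and the 2 cannot be told apart. The difference was negative for 6 genes, at -2.71 for NDUFA13, -1.27 for NDUFA3, -0.99 for NDUFAF1, -0.76 for NDUFS4, -0.54 for NDUFS3 and -0.49 for NDUFV3. It was positive for 22 genes. In the core these were NDUFS8 at 0.43, NDUFS1 at 0.48 and NDUFV1 at 0.6. In the matrix arm they were NDUFA6 at 0.23, NDUFA12 at 0.42, NDUFA2 at 0.6, NDUFS6 at 0.89, NDUFA5 at 1.11 and NDUFA9 at 1.39. In the membrane arm they were NDUFB3 at 0.2, NDUFB1 at 0.26, NDUFB7 at 0.4, NDUFB4 at 0.43, NDUFB9 at 0.52, NDUFB8 at 0.56, NDUFB11 at 0.64, NDUFB5 at 0.77, NDUFA10 at 0.93 and NDUFC2 at 2.23. The assembly factors were NDUFAF3 at 0.4, NDUFAF4 at 0.49 and NDUFAF6 at 1.04. NDUFA13, NDUFA9, NDUFB5, NDUFB8 and NDUFC2 share most of their coding exons with another gene.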

How the results depend on the processing

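Of the recomputed fold changes of single genes, 696 kept their direction and call, 41 lost the call, 3 gained it and 15 turned sign; the cause was not tested. Counts are given as higher and lower. With a change over 0.5 also required, resistant 786-O against 786-O had 2 and 6, resistant A498 against A498 had 6 and 9, 786-O against A498 had 12 and 5, resistant A498 against 786-O had 0 and 4, resistant A498 against resistant 786-O had 2 and 2, and 12 changes differed upward. Of all genes the shares were, in the same order, 25.8% and 18.3%, 25.9% and 26.6%, and 25.7% and 28.0%. They were then 22.2% and 17.8%, 8.88% and 11.7%, and 26.2% for the changes that differed upward. With library size scaling the counts were 9 and 15 for resistant 786-O and 10 and 12 for resistant A498 against 786-O, and the medians were -0.034 and -0.0046, 0.084 for resistant A498 against A498, 0.084 for 786-O against A498 and 0.14 for the difference between the changes. Of all genes 42.9% were higher and 25.8% lower in resistant 786-O under that scaling, and 39.8% and 23.8% in resistant A498 against 786-O. With no filter the medians were 0.084 for resistant A498 against A498, 0.24 for 786-O against A498 and 0.27 for the difference, and resistant A498 against resistant 786-O had 6 genes lower, beside 12.6% of all genes. With at least 10 counts in every library the medians, in the order resistant 786-O against 786-O, resistant A498 against A498, 786-O against A498, resistant A498 against 786-O and the difference, were -0.13, -0.039, 0.12, -0.13 and 0.14, and with the length and GC trend removed they were -0.22, -0.034, 0.035, -0.11 and 0.10. Under that removal 786-O against A498 had 14 genes lower, resistant A498 against resistant 786-O had 16 higher and 3 lower, and 10 changes differed downward. In the same order, the shares of all genes were 35.5% lower, 20.3% higher and 19.6% lower, and 32.9% downward. DESeq2 gave medians of 0.11 for 786-O against A498, -0.12 for resistant A498 against 786-O and 0.17 for the difference. resistant A498 against A498 fitted alone gave -0.023. The test named by the authors, unadjusted on CPM, gave 1 higher and 25 lower in resistant 786-O. The share of all genes under that test was not taken. Without the 8 genes with shared exons, an alternative chosen after seeing the data, 3 of 35 were higher in resistant 786-O, beside 35% of all genes. The medians were -0.069 in resistant A498 against A498 and -0.20 against 786-O.

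Leaving out 1 library gave 3 to 6 higher and 22 to 28 lower in resistant 786-O (median -0.22 to -0.16), 16 to 18 and 13 to 15 in resistant A498 against A498 (-0.0070 to 0.12), 21 to 22 and 7 to 9 in 786-O against A498 (0.16 to 0.20), 2 to 4 and 18 to 21 in resistant A498 against 786-O (-0.18 to -0.11), 7 to 18 and 5 to 10 in resistant A498 against resistant 786-O (0.03 to 0.10), and 21 to 22 and 6 to 7 for the difference (0.19 to 0.26). Of all genes 31.6% to 37.6% were higher and 30.4% to 35.9% lower in resistant 786-O. The shares were 33.4% to 34.7% and 32.6% to 34.2% in resistant A498 against A498. They were 35.5% to 36.2% and 33.5% to 34.3% in 786-O against A498. Against 786-O, resistant A498 had 28.5% to 29.4% and 27.1% to 29.9%, and against resistant 786-O 19.2% to 26.7% and 17.4% to 26.6%. For the difference the shares were 31.8% to 36.5% and 31.7% to 36.3%. In resistant 786-O 3 were higher without replicate 2 or 3 of 786-O, where 31.8% and 31.6% of all genes were. In resistant A498 against 786-O 2 were higher without replicate 1 or 2 of 786-O, where 28.6% of all genes were in either case. In resistant A498 against resistant 786-O 18 were higher without resistant 786-O replicate 2, and 5 were lower without any 1 library of resistant A498. Of all genes 26.7% were higher and 17.4% to 17.9% lower in these settings. The signs that turned were, with the trend removed, NDUFS7 at -0.22 and NDUFAF3 at -0.028 in resistant 786-O, NDUFS1 at -0.0039 and NDUFAF6 at -0.061 in resistant A498 against A498, and NDUFS1 at -0.048, NDUFS3 at 0.0072, NDUFS7 at -0.033 and NDUFAF1 at 0.010 in resistant A498 against 786-O. With library size scaling NDUFS3 at 0.077, NDUFAF1 at 0.095, NDUFAF5 at 0.011 and NDUFAF7 at 0.081 turned in resistant A498 against 786-O. With 1 library left out, NDUFS7 at -0.011 to 0.12 and NDUFAF1 at -0.090 to 0.0037 in resistant A498 against 786-O, and NDUFAF6 at -0.0070 to 0.13 in resistant A498 against A498, turned without 786-O replicate 3, resistant A498 replicate 2 and A498 replicate 2 respectively. Of the values that turned, those of NDUFS7 in resistant 786-O and of NDUFS1 in both comparisons had been called.

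The labels give the groups the same replicate numbers, but libraries with the same number did not deviate together, with correlations of -0.09 to 0.04. With the replicate number as a block the counts of genes higher and lower were 4 and 26 in resistant 786-O, 18 and 17 in resistant A498 against A498, 22 and 10 in 786-O against A498, 4 and 21 in resistant A498 against 786-O, 8 and 8 in resistant A498 against resistant 786-O, and 22 and 7 for the difference. Of all genes the shares were, in the same order, 34.4% and 33.3%, 36.0% and 36.2%, and 38.0% and 35.9%. They were then 31.2% and 31.9%, 22.8% and 22.2%, and 33.8% and 33.9%. Depth limits the genes with few counts, NDUFA7, NDUFV2 and NDUFA13. Changes under about 0.1 on the log2 scale were not detectable for most genes at an SE of 0.04 to 0.12, and the limit rises with the SE. In resistant 786-O NDUFB1 at -0.13 ± 0.08 and NDUFA11 at 0.13 ± 0.08 were not called. The SE there was 0.31 for NDUFA13 and 0.39 for NDUFA7, so a gene that was not called may still have changed.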
